A study of Mus musculus with 12 samples.

Results

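Genes that move, store and recycle iron, together with the metallothioneins and a zinc exporter, were followed in leukaemia cells from mouse bone marrow before and after chemotherapy. The set holds 10 genes named by symbol, of 24883 entries in each gene table, and all 10 were found at a single locus each. The genes were Hmox1, Slc40a1, Tfrc, Fth1, Ftl1, Slc11a1, Mt1, Mt2, Mt3 and Slc30a1. The cells were GFP-positive cells sorted from mice carrying MLL-AF9, a fusion oncogene of human acute myeloid leukaemia, and each of the 12 mice gave 1 RNA-seq library. The relapse group held 4 mice sampled 10 days after the end of doxorubicin (a topoisomerase poison) plus cytarabine (a nucleoside analogue). The iCT group held 3 mice sampled 3 days after the end of the same induction chemotherapy, and the vehicle group held 5 mice given no chemotherapy. All 3 groups shared the MLL-AF9 genotype, the bone marrow source and the GFP sort. The sources used here do not give the promoter that drives the transgene, the strain, the age or the sorting gate.

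Cells take up iron as transferrin through the receptor encoded by Tfrc, keep it in ferritin shells built from Fth1 and Ftl1 chains, and release it through ferroportin, encoded by Slc40a1. Hmox1 breaks down haem and frees its iron, and marrow macrophages use it to recover iron from old red cells. When iron is scarce, iron regulatory proteins bind RNA hairpins, called iron-responsive elements, in several of these transcripts: in 5′ leaders they hold back translation, and in the 3′ end of Tfrc they protect the RNA. Metallothioneins are small cysteine-rich proteins that bind zinc and copper. Mt1, Mt2 and Slc30a1 are classical targets of the zinc-sensing factor MTF1, which binds metal response elements, while Mt3 is known mainly from brain.

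Letters of the iron-responsive hairpin were searched for in the transcript models, because ferritin and transferrin receptor are the textbook carriers of this element and its action on translation is not seen in RNA levels. The pattern was a C, 5 stem bases, the loop CAGTGN and 5 bases that pair with the stem, G-T pairs allowed. It was present in the 5′ leaders of 28 of 21875 protein-coding genes (0.128%) and in the 3′ ends of 127 genes (0.581%), from GENCODE M21 transcripts on GRCm38. Fth1, Ftl1 and Slc40a1 each held 1 such stretch in the 5′ leader and Tfrc held 4 in the 3′ end. The stretches are shown with the loop in capitals, and the 4 Tfrc stretches differ from each other in the last loop base or in the stem:
Fth1, chr19:9982732-9982760, plus strand: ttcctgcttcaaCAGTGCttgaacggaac
Ftl1, chr7:45459779-45459807, minus strand: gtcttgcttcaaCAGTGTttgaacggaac
Slc40a1, chr1:45925465-45925493, minus strand: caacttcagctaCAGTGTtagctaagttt
Tfrc, chr16:32631219-32631247, plus strand: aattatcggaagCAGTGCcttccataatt
Tfrc, chr16:32631598-32631626, plus strand: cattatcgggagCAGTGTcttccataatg
Tfrc, chr16:32631663-32631691, plus strand: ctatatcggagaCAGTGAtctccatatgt
Tfrc, chr16:32631710-32631738, plus strand: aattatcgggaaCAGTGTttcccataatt

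Levels are given as FPKM, fragments scaled by transcript length and by library depth, which allows genes of different length to be compared. The library of iCT mouse 1 was the shallowest. Read back from the width of the deposited confidence intervals, it held about 361914 fragments, against 1225254 to 8359793 in the other 11 libraries. It listed 10441 genes above 0, against 12401 to 14509 in the others. Called results of the 10 genes that rest on it are therefore given below also without it. For some other genes only its value is given, beside those of the other iCT mice. The marker genes of myeloid leukaemia cells (Kit, Cd34, Hoxa9, Hoxa10, Meis1, Mpo, Elane, Prtn3, Itgam and Cd93) summed to between 9611 and 13648 FPKM in relapse libraries, 10180 and 13978 in iCT libraries and 10651 and 13762 in vehicle libraries. None of the 10 was at 0 in every library of a group. The sum is carried by Mpo, Elane and Prtn3, and the progenitor markers were not level: Kit (-1.79, limma adjusted p = 8.67e-05), Cd34 (-1.69, adjusted p = 0.00017) and Cd93 (-2.21, adjusted p = 0.00119) fell in iCT against vehicle cells, and the other 7 were not called. In relapse against iCT the same 3 were called higher, at 2.06, 2.22 and 2.62 for Kit, Cd34 and Cd93. The part of this difference in the sorted population in the results below was not tested. In a sorted bulk population, fewer cells of a type and less RNA per cell cannot be told apart.

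The 10 genes spanned more than 3 orders of magnitude. In vehicle cells Ftl1 stood at 3240 ± 203 FPKM, Fth1 at 662 ± 40.5 and Mt1 at 350 ± 70.2 (SD, n = 5), and Ftl1 ranked 58th and Mt1 328th among all entries. A middle group followed, Tfrc at 11.9 ± 2.91, Slc40a1 at 11.4 ± 3.44, Hmox1 at 7.82 ± 2.13 and Mt2 at 5.53 ± 3.00 FPKM. Slc11a1 at 3.08 ± 0.719 and Slc30a1 at 2.79 ± 0.438 FPKM were low, and Mt3 was listed at 0 in 4 of 5 vehicle libraries. Neighbours in this order within the middle group, and Slc11a1 beside Slc30a1, overlapped between libraries, whereas the values of Ftl1, Fth1 and Mt1 did not overlap each other. The coefficient of variation among the vehicle mice was 6.12% for Fth1 and 6.27% for Ftl1, 15.7% to 30.1% for Slc30a1, Mt1, Slc11a1, Tfrc, Hmox1 and Slc40a1, and 54.2% for Mt2.

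**Figure D1:**
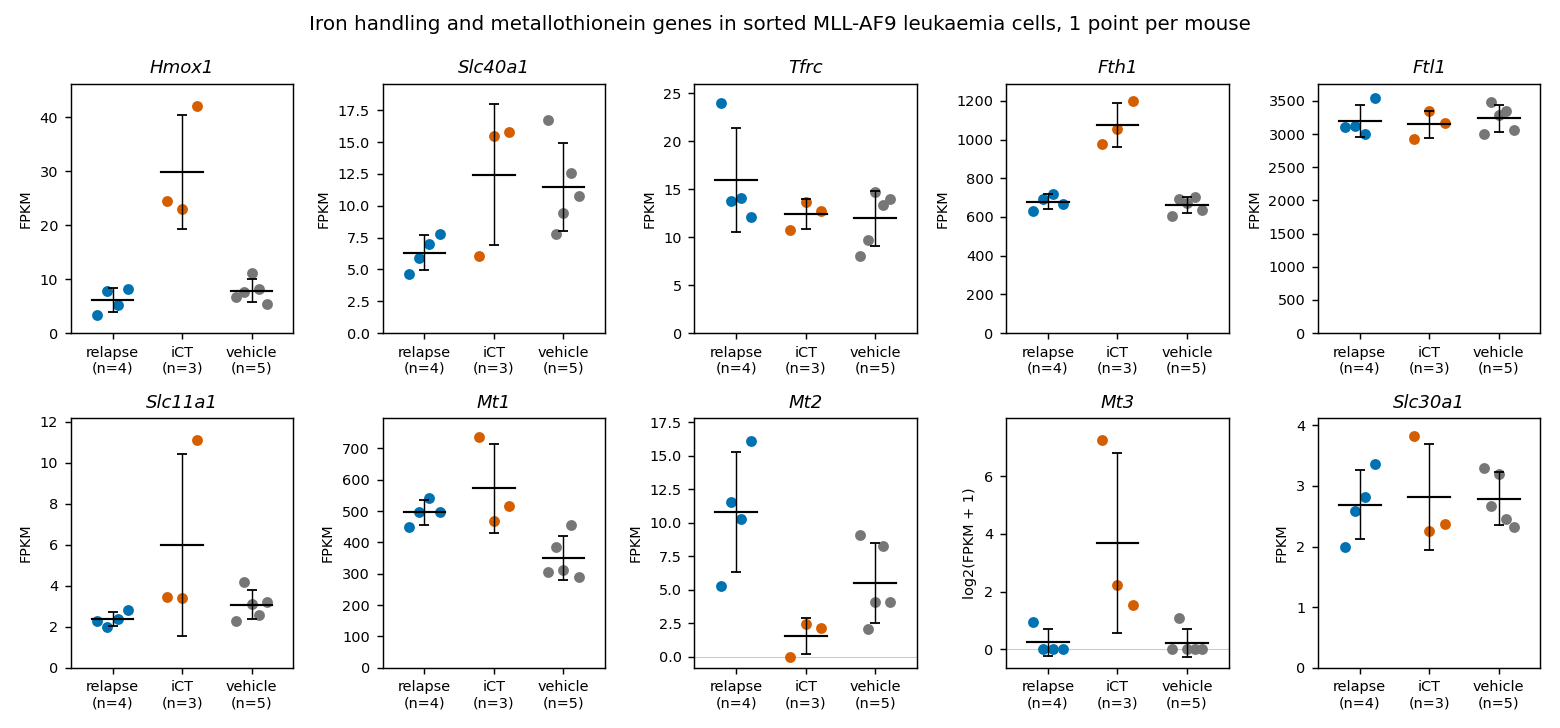
FPKM of each of the 10 genes in every library (points, linear axes; Mt3 on a log2(FPKM + 1) axis), by group from left to right relapse, iCT and vehicle, with the group mean as a line and the SD as bars. The 3 iCT points stand above all others for Hmox1, Fth1 and Mt3, while the points of the 3 groups overlap for Tfrc, Ftl1 and Slc30a1.

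Hmox1, the inducible haem oxygenase (GRCm38 chromosome 8, 75093617 to 75100593, plus strand), was the iron gene of the set with the largest log2 change in iCT against vehicle cells. It had 24.5, 23.0 and 42.1 FPKM in the 3 iCT libraries, against 6.74, 7.60, 11.2, 8.16 and 5.43 FPKM in vehicle libraries. Every iCT library exceeded every vehicle library. The change was 1.79 ± 0.28 on the log2(FPKM + 1) scale (± SE here and for later log2 changes; 95% interval 1.18 to 2.40; 3.45-fold; limma adjusted p = 0.00316 over 11019 genes). Relapse libraries had 3.42, 7.71, 5.29 and 8.13 FPKM, all below the iCT libraries and overlapping those of the vehicle group. The difference between relapse and iCT was -2.12 ± 0.29 (limma adjusted p = 0.00184), and between relapse and vehicle it was -0.33 (adjusted p = 0.598). By mean FPKM, Hmox1 ranked 2934th in iCT and 6581st in vehicle cells. In iCT mouse 1 the value rested on about 14 fragments, against 322 and 448 in the other two iCT mice, and the call held in each of 21 alternative settings, including the one without iCT mouse 1.

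Of the ferritin chains, Fth1 rose in iCT against vehicle cells and Ftl1 was not called. Fth1 (chromosome 19, 9980599 to 9985111, plus strand), which encodes the heavy chain that oxidises iron on entry, had 975, 1054 and 1198 FPKM in iCT libraries, against 604, 691, 674, 702 and 637 FPKM in vehicle libraries. The groups did not overlap, and the change was 0.70 ± 0.09 (95% interval 0.50 to 0.89; 1.62-fold; limma adjusted p = 0.000911). Relapse libraries had 629, 694, 720 and 669 FPKM, inside the vehicle range apart from mouse 3, which gave -0.66 ± 0.09 against iCT (adjusted p = 0.00205) and 0.03 ± 0.08 against vehicle (95% interval -0.14 to 0.21). Ftl1 (chromosome 7, 45457943 to 45459886, minus strand), the light chain that helps mineralise the stored iron, had 2926, 3342 and 3171 FPKM in iCT libraries, against 2997, 3487, 3293, 3354 and 3069 FPKM in vehicle libraries. These ranges overlapped, the change was -0.04 ± 0.09 (95% interval -0.24 to 0.15), and its sign turned under both other scalings of the libraries. In relapse libraries Ftl1 had 3109, 3122, 2995 and 3551 FPKM. This range overlapped those of both other groups, although relapse mouse 4, at 3551 FPKM, lay above every iCT and vehicle library.

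Set against the light chain in the same library, Fth1 RNA amounted to 20.2%, 22.2%, 24.0% and 18.8% of Ftl1 in the 4 relapse libraries, to 33.3%, 31.5% and 37.8% in the 3 iCT libraries and to between 19.8% and 20.9% in the 5 vehicle libraries. The iCT libraries thus all lay above every other library in this share, which needs no scaling between libraries. Both ferritin genes have processed copies elsewhere in the mouse genome, and the sources used here do not say how fragments that match more than 1 copy were assigned.

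**Figure D2:**
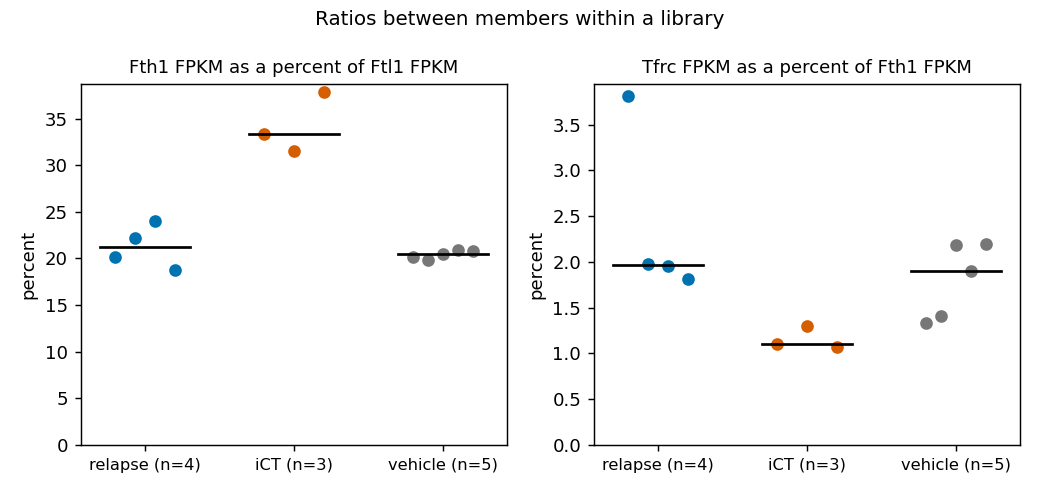
Ratios of FPKM between genes within each library in percent (points, with the group median as a line) for relapse, iCT and vehicle mice, Fth1 against Ftl1 on the left and Tfrc against Fth1 on the right. Fth1 lies between 31.5% and 37.8% of Ftl1 in iCT libraries and between 18.8% and 24.0% in all other libraries, and Tfrc lies at 1.07% to 1.30% of Fth1 in iCT libraries, the lowest values of that panel.

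The uptake and export genes showed no called difference. Tfrc (chromosome 16, 32608895 to 32632794, plus strand) had 24.0, 13.7, 14.1 and 12.1 FPKM in relapse libraries, 10.7, 13.7 and 12.8 FPKM in iCT libraries, and 8.01, 9.75, 14.7, 13.3 and 13.9 FPKM in vehicle libraries. Relapse mouse 1 stood apart at the top and the other libraries overlapped across the groups. The change was 0.07 ± 0.23 for iCT against vehicle (95% interval -0.43 to 0.58; limma adjusted p = 0.85) and 0.38 ± 0.21 for relapse against vehicle (adjusted p = 0.448). Per library, Tfrc amounted to 3.81%, 1.98%, 1.96% and 1.81% of Fth1 in relapse, to 1.10%, 1.30% and 1.07% in iCT and to between 1.33% and 2.19% in vehicle, so that all 3 iCT libraries had the lowest shares. The lowest vehicle share, 1.33%, was close to the highest iCT share, 1.30%.

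Slc40a1 (chromosome 1, 45908069 to 45925594, minus strand), the only known cellular iron exporter, had 4.63, 5.91, 6.96 and 7.78 FPKM in relapse libraries. It had 6.05, 15.5 and 15.8 FPKM in iCT libraries and 16.7, 7.75, 9.42, 12.6 and 10.7 FPKM in vehicle libraries. Relapse mice were low, with relapse mouse 4 at the level of vehicle mouse 2. The value of iCT mouse 1 stood far from those of the other iCT mice. It rested on about 8 fragments, against 502 and 395 in them. No comparison passed the threshold: relapse against vehicle gave -0.74 ± 0.28 (95% interval -1.34 to -0.15; limma adjusted p = 0.246), relapse against iCT -0.79 (adjusted p = 0.123) and iCT against vehicle 0.05 ± 0.30. Without iCT mouse 1 the relapse value was lower than the iCT value by a called -1.20 (adjusted p = 0.0169); the adjusted p over all alternatives of that difference ranged between 0.0169 and 0.244. Weighting libraries by their quality called both relapse differences, at -1.14 against iCT (adjusted p = 0.0237) and at -0.73 against vehicle (adjusted p = 0.0222).

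Slc11a1 (chromosome 1, 74375202 to 74386051, plus strand), a transporter that pumps metal ions out of phagosomes, had 2.26, 1.996, 2.39 and 2.82 FPKM in relapse libraries, against 3.43, 3.41 and 11.1 FPKM in iCT libraries. Vehicle libraries had 2.31, 4.17, 3.13, 2.58 and 3.23 FPKM. All iCT values exceeded all relapse values, but the difference of -0.88 did not pass the test (limma adjusted p = 0.0911), and iCT mouse 3 carried much of it: without that mouse the difference was -0.40, and without iCT mouse 2 it was -1.13 and was called (adjusted p = 0.044). Quantile normalization (-1.16, adjusted p = 0.0254) and quality weights (-1.34, adjusted p = 0.0186) also called it. For iCT against vehicle the change was 0.62 ± 0.30 (adjusted p = 0.186).

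The 3 metallothionein genes lie next to each other on mouse chromosome 8, in the order Mt3 (94152606 to 94154148), Mt2 (94172617 to 94173567) and Mt1 (94179088 to 94180327), all on the plus strand of GRCm38. Mt1 was the abundant one, and it was higher in iCT than in vehicle cells, while Mt2 was low and was not called in that comparison. The 250 bases before each start are printed because the genes are neighbours of one family that differed in level. The core letters of a metal response element, TGCACNC or TGCGCNC on either strand, are in capitals. RefSeq on GRCm38.p6 gave a window for 8 of the 10 genes:
Mt3, chr8:94152357-94152606, plus strand: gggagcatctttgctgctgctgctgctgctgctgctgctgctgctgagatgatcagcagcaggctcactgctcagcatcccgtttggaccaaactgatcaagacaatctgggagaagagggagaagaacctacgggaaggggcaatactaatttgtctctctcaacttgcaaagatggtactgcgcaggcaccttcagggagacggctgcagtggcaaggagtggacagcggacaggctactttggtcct
Mt2, chr8:94172368-94172617, plus strand: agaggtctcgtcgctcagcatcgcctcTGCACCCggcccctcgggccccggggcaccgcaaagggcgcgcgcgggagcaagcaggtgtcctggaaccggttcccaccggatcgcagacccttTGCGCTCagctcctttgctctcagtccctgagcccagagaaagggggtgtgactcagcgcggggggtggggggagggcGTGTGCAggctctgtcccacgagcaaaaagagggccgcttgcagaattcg
Mt1, chr8:94178839-94179088, plus strand: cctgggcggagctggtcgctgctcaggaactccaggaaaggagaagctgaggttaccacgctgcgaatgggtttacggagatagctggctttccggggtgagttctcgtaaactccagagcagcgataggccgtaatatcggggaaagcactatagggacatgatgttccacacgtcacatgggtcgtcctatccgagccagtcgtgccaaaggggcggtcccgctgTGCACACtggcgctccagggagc
The Mt2 window held 3 such stretches, at -223 to -217 and -128 to -122 on the plus strand and at -50 to -44 on the minus strand, counted from the start. The Mt1 window held 1, at -23 to -17, and the Mt3 window held none. Slc30a1 held 1 at -43 to -37, and 1 of the Tfrc windows held 2 that overlap each other. Of 32851 promoter windows of the same length, 21.4% held at least 1, 5.17% at least 2 and 1.26% at least 3, so that 1 match is common. A match describes letters only, and bases outside the 250 before the annotated start were not searched. The counts of Mt1 and Mt2 therefore depend on where that start is placed. They do not give the number of metal response elements of either gene. Mt1, with 1 match in its window, had by far the higher RNA level per length.

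**Figure D3:**
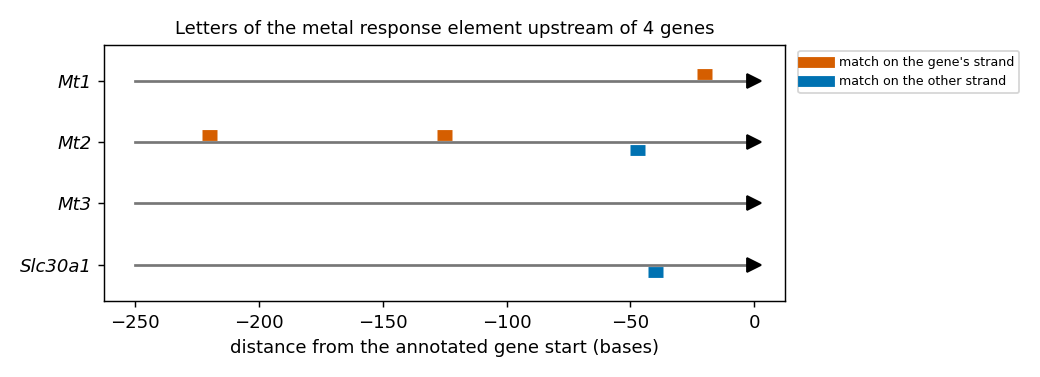
Positions of the metal response letters (marks, by strand) in the 250 bases before the start of Mt1, Mt2, Mt3 and Slc30a1, plotted as distance from the gene start in bases. Mt2 has 3 marks, Mt1 and Slc30a1 have 1 each and Mt3 has none.

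Mt1 had 448, 496, 543 and 496 FPKM in relapse libraries, 735, 468 and 515 FPKM in iCT libraries, and 305, 387, 311, 457 and 291 FPKM in vehicle libraries. Every iCT library lay above every vehicle library, by a margin of 468 against 457 FPKM at the closest, and of the relapse libraries only mouse 1 fell inside the vehicle range. For iCT against vehicle the change was 0.70 ± 0.17 (95% interval 0.34 to 1.07; 1.63-fold; limma adjusted p = 0.0238). It was called in 15 of 21 alternatives and fell to 0.51 (adjusted p = 0.0823) without iCT mouse 1; without vehicle mouse 3 (adjusted p = 0.054) and without vehicle mouse 5 (adjusted p = 0.0543) it also missed the threshold. Relapse against vehicle gave 0.52 ± 0.15 (95% interval 0.18 to 0.85), which the fit of all 12 libraries did not call (adjusted p = 0.182) and the fit of the 9 relapse and vehicle libraries alone did (adjusted p = 0.0435). Relapse and iCT overlapped, at -0.18 (adjusted p = 0.501).

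Mt2 had 5.31, 11.5, 10.3 and 16.1 FPKM in relapse libraries, against 0, 2.44 and 2.16 FPKM in iCT libraries. All relapse values exceeded all iCT values, and the difference was 2.33 ± 0.50 (95% interval 1.24 to 3.41; limma adjusted p = 0.0149). The call was lost with the mouse number as a block (adjusted p = 0.0722) and in the fit of the relapse and iCT libraries alone (adjusted p = 0.0506). Vehicle libraries, at 9.10, 2.10, 4.13, 8.24 and 4.07 FPKM, overlapped both other groups. For iCT against vehicle the change was -1.43 ± 0.48 and missed the threshold (adjusted p = 0.0761). The 0 in iCT mouse 1 carries little information: 1 fragment of Mt2 in that library was worth 6.35 FPKM, so that a count of 0 allows up to 19.1 FPKM (3 fragments, counting error only), above every Mt2 value measured. Without that mouse the relapse against iCT difference was 1.75 (adjusted p = 0.0403) and the iCT against vehicle difference was -0.85 (adjusted p = 0.275); without iCT mouse 2 the iCT against vehicle difference was -1.75 and was called (adjusted p = 0.0359). Mt1 over Mt2 was 84.3, 43.0, 52.8 and 30.7 in relapse libraries, 192 and 239 in iCT mice 2 and 3, and 33.5, 184, 75.5, 55.4 and 71.4 in vehicle libraries. The 2 iCT ratios were the highest of the 11 available, with vehicle mouse 2, which had about 2 Mt2 fragments, just below them.

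Mt3 was found almost only in iCT cells. It had 150, 3.72 and 1.90 FPKM in iCT libraries, against 1.11 FPKM in vehicle mouse 2 and 0 in the other 4 vehicle libraries. Relapse mouse 1 had 0.933 FPKM and the other 3 relapse libraries 0. A count of 0 allows up to 1.04 to 2.11 FPKM in those relapse libraries and up to 1.26 to 6.34 FPKM in those vehicle libraries (3 fragments, counting error only), and the limit of 6.34 FPKM in vehicle mouse 3 lies above the values of iCT mice 2 and 3. These values stood on few fragments, about 21, 13 and 5 in the iCT libraries and 1 each in vehicle mouse 2 and relapse mouse 1. The log2 change for iCT against vehicle was 3.46 ± 0.95 (95% interval 1.39 to 5.53; limma adjusted p = 0.0401), and it was 1.67 without iCT mouse 1 (adjusted p = 0.0215). It was called in 7 of 20 alternatives and missed the threshold whenever any vehicle or relapse library was left out (adjusted p 0.0534 to 0.078). As pooled fragments per implied depth, Mt3 was 54.0 times as frequent in iCT as in vehicle libraries (95% exact interval 9.13 to 2190), and 25.5 times as frequent with iCT mice 2 and 3 alone (4.03 to 1060). Against relapse the same ratios were 49.2 (8.33 to 1990) and 23.3 (3.67 to 970). These intervals cover counting error only, not the spread between mice, so they are no test of a difference between the groups. Mt3 passed the expression filter (at least 1 FPKM in at least 3 libraries) only with the help of the 3 iCT libraries. It was thus selected by the group in which it is high, and its calls cannot be set apart from that selection. Relapse against iCT gave -3.43 (95% interval -5.60 to -1.27; limma adjusted p = 0.0485). That call also held in 7 of 20 alternatives, was -1.65 without iCT mouse 1 (adjusted p = 0.0268) and was lost whenever a relapse or vehicle library was left out (adjusted p 0.0601 to 0.105).

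Slc30a1 (chromosome 1, 191906780 to 191913247, plus strand), which exports zinc across the plasma membrane, had 1.99, 2.59, 2.82 and 3.36 FPKM in relapse libraries. It had 3.83, 2.26 and 2.38 FPKM in iCT libraries and 3.29, 2.67, 3.20, 2.46 and 2.32 FPKM in vehicle libraries. The 3 groups overlapped, and the iCT against vehicle change lay between -0.42 and 0.41 (95% interval; limma adjusted p = 0.993). It averaged 2.69 FPKM in relapse, 2.82 in iCT and 2.79 in vehicle libraries.

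Counted over the set, 4 of 10 genes (Hmox1, Fth1, Mt1 and Mt3) were called higher in iCT than in vehicle cells and 0 lower, beside 9.62% of all 11019 tested genes called, 3.31% higher and 6.31% lower. Mt3 reached the filter only with the iCT libraries, as did 186 of all tested genes, so it was selected by the group in which it is high, and 3 of the other 9 genes were called higher. The same 4 genes were those whose iCT libraries all exceeded all vehicle libraries, beside 5.49% of tested genes separated in that direction. Among the other 9 genes these were Hmox1, Fth1 and Mt1. The median log2 change over the 10 genes, with Mt3 included, was 0.35, beside -0.08 over all tested genes. In relapse against iCT, 1 of 10 genes was called higher (Mt2) and 3 lower (Hmox1, Fth1 and Mt3), beside 9.72% of all tested genes called, 6.62% higher and 3.1% lower. Mt3 counts here through the same selection, and among the other 9 genes Hmox1 and Fth1 were called lower. The median, with Mt3 included, was -0.42 beside 0.16. All relapse libraries exceeded all iCT libraries for 1 of the 10 (Mt2), beside 16.9% of tested genes, and lay below all of them for 4 (Hmox1, Fth1, Mt3 and Slc11a1), beside 6.33%. Without the selected Mt3, those lying below were Hmox1, Fth1 and Slc11a1. The comparisons share samples: the first and the last both use the iCT libraries, so the opposite signs of Hmox1, Fth1 and Mt3 in them are not separate measurements. Other scalings changed the split of calls over all genes between higher and lower. For iCT against vehicle, 365 higher and 695 lower became 496 and 616 with median-of-ratios scaling and 526 and 570 with quantile normalization. For relapse against iCT, 729 higher and 342 lower became 495 and 516, or 431 and 420, and the median of all genes moved to 0.06 and 0.02. The calls of Hmox1 and Fth1 in both comparisons kept their direction and stayed past the threshold under each scaling.

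**Figure D4:**
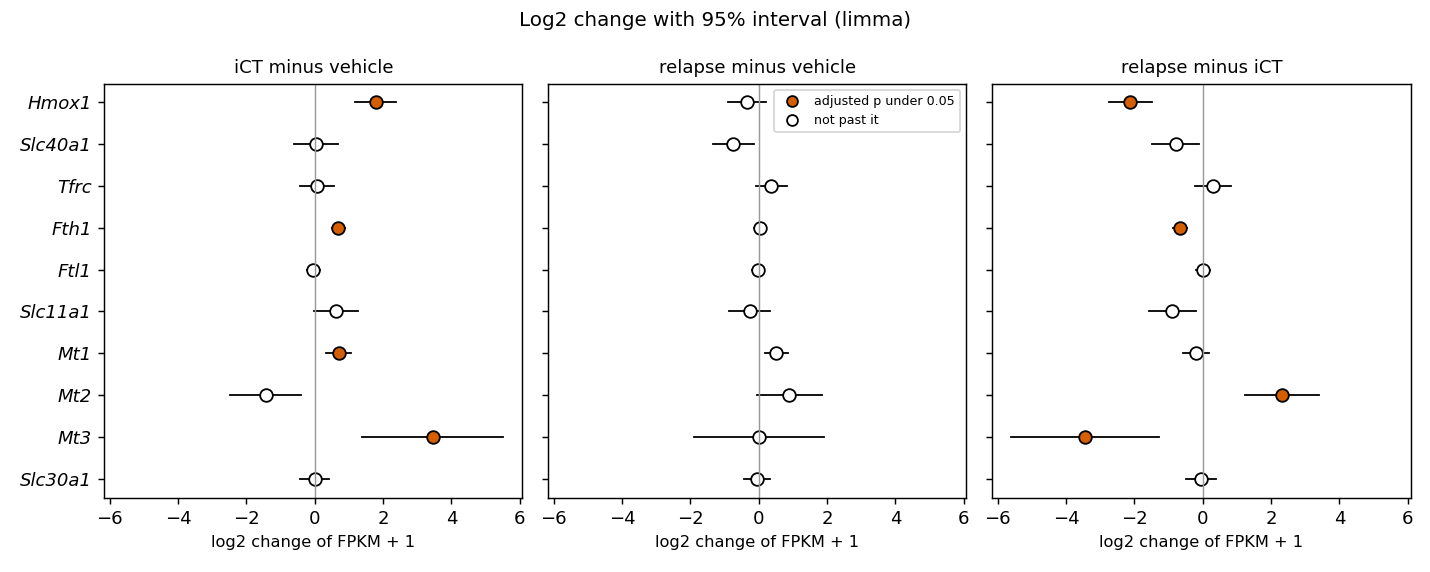
Log2 change of each of the 10 genes on the log2(FPKM + 1) scale for iCT against vehicle, relapse against vehicle and relapse against iCT, with limma 95% intervals as bars and filled points for adjusted p under 0.05. In the first panel Hmox1, Fth1, Mt1 and Mt3 are filled on the right, in the second no gene is filled, and in the third Mt2 is filled on the right and Hmox1, Fth1 and Mt3 on the left.

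For relapse against vehicle, 0 of 10 genes were called by limma in either direction, and so were 0 of 11019 genes (0%), with 1604 genes and 2 of the 10 (Mt1 and Slc40a1) at an unadjusted p under 0.05. No gene of the set was separated between the groups, beside 9.72% of tested genes separated upward and 4.03% downward. A fit of the relapse and vehicle libraries alone called 3.78% of 10833 genes higher and 1.87% lower, among them Mt1 as higher. With libraries weighted by quality, 5.86% of genes were called higher and 2.95% lower, with Mt1 higher (0.54, adjusted p = 0.025) and Slc40a1 lower. A missed threshold does not show that relapse and vehicle cells had equal levels. The widths can be read from the intervals, -0.14 to 0.21 for Fth1 and -1.34 to -0.15 for Slc40a1.

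In each of 7 wider lists of metal and haem genes, 0 to 3 genes were called higher in iCT against vehicle cells and 0 to 1 lower, beside 3.31% of all tested genes called higher and 6.31% lower. Leaving out 1 library gave 0 to 3 higher and 0 to 3 lower per list. Of 14 tested genes of iron uptake, release and intracellular handling, 2 rose and 1 fell in iCT against vehicle cells. Lcn2, a siderophore-binding lipocalin of neutrophil granules, stood at 1193 ± 225 FPKM in iCT cells (n = 3) and at 380 ± 177 in vehicle cells (n = 5; 1.75 ± 0.34, limma adjusted p = 0.00998). Steap4, a metalloreductase, averaged 1.84 FPKM in iCT and 0.238 in vehicle cells (1.17, adjusted p = 0.0122). It passed the filter only through the iCT libraries, where it is high, so its call cannot be set apart from that selection. Of the other tested genes of the list only Lcn2 was called higher. Pcbp3, a relative of the iron chaperones Pcbp1 and Pcbp2, fell to 1.91 FPKM in iCT cells, against 6.02 in vehicle cells (-1.48, adjusted p = 0.0344; called in 11 of 21 alternatives). Its value was 0 FPKM in iCT mouse 1, against 3.07 and 2.64 in the other iCT mice. Without iCT mouse 1 the list had 0 genes called lower, so the call of Pcbp3 was lost. Ncoa4, the receptor that delivers ferritin to lysosomes, averaged 93.4 FPKM in both groups (0.01, adjusted p = 0.956). The intestinal and endosomal importer Slc11a2 (0.19), the ferrireductase Steap3 (0.06) and the metal importer Slc39a14 (0.23) were not called. The median change of the list was 0.10, beside -0.08 over all genes. In relapse against iCT the 3 called genes had the opposite sign, Lcn2 -1.31 (adjusted p = 0.0384), Steap4 -1.15 (adjusted p = 0.0149) and Pcbp3 1.77 (adjusted p = 0.0196), in a comparison that shares the iCT libraries. Steap4 counts here through the same selection.

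Of 8 tested genes of iron and haem sensing, 0 were called by limma between iCT and vehicle, with 3 at an unadjusted p under 0.05, beside 3.31% and 6.31% of all genes called higher and lower. Ireb2 and Aco1, which encode the iron regulatory proteins, gave -0.55 (adjusted p = 0.145) and 0.15 (adjusted p = 0.524). Fbxl5, the iron-sensing ligase subunit that marks the Ireb2 protein for breakdown, averaged 11.7 FPKM in relapse, 20.1 in iCT and 13.1 in vehicle cells. It missed the threshold for iCT against vehicle (0.56, adjusted p = 0.0662) and fell in relapse against iCT (-0.72, adjusted p = 0.0312). In that comparison the hypoxia factor gene Epas1 fell as well (-1.82, adjusted p = 0.0367). Epas1 had 13.2 FPKM in iCT mouse 1, against 0.863 and 5.69 in the other iCT mice. Bach1, the haem-binding repressor of Hmox1, gave -0.21 (adjusted p = 0.401), and Nfe2l2, which encodes the NRF2 activator of Hmox1 and Fth1, gave -0.17 (adjusted p = 0.456) for iCT against vehicle.

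Haem synthesis (8 tested) and haem transport and breakdown (8 tested) each had 0 calls for iCT against vehicle with limma, with 3 and 5 genes at an unadjusted p under 0.05 and medians of 0.21 and 0.25. Alas1, the first enzyme of haem synthesis, averaged 256 FPKM in iCT and 219 in vehicle cells (0.23, adjusted p = 0.248). The haem transporter Slc48a1 averaged 103 FPKM in iCT and 83.5 in vehicle cells (0.29, adjusted p = 0.101), and Blvrb, a reductase of biliverdin, gave -0.07. In relapse against iCT, Hmox2, the constitutive haem oxygenase (-0.50, adjusted p = 0.046), and Hp, which binds free haemoglobin (-0.36, adjusted p = 0.0196), fell. Hmox2 had 76.5 FPKM in iCT mouse 1, against 50.3 and 54.1 in the other iCT mice. Of 14 iron-sulphur assembly genes, the chaperone gene Hspa9 rose (140 FPKM in iCT, 98.2 in vehicle; 0.51, adjusted p = 0.0107) and its partner Hscb fell (25.9 FPKM in iCT, 38.5 in vehicle; -0.55, adjusted p = 0.0222) for iCT against vehicle, with a list median of -0.08. Hspa9 (-0.51, adjusted p = 0.013) and the scaffold gene Iscu (-0.40, adjusted p = 0.0492) fell in relapse against iCT. Iscu had 144 FPKM in iCT mouse 1, against 102 and 106 in the other iCT mice.

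Of 19 tested zinc and copper genes, 2 rose in iCT against vehicle cells, beside 3.31% of all tested genes called higher: the zinc importer Slc39a1 (25.1 FPKM in iCT, 16.7 in vehicle; 0.55, limma adjusted p = 0.0318; 13 of 21 alternatives) and Sod1, the copper-zinc superoxide dismutase (951 FPKM in iCT, 691 in vehicle; 0.47, adjusted p = 0.0465; 6 of 21 alternatives). The count was 0 without iCT mouse 1 and without vehicle mouse 1, 3, 4 or 5, and 3 genes were called lower without iCT mouse 2. Mtf1, which encodes the zinc sensor itself, averaged 3.16 FPKM in iCT and 2.54 in vehicle cells (0.24, adjusted p = 0.306). Of 9 tested oxidative stress targets of NRF2, 3 rose and 1 fell, beside 3.31% and 6.31% of all tested genes, and 1 rose and 0 fell without iCT mouse 1. G6pdx, which supplies NADPH, stood at 141 ± 20.9 FPKM in iCT (n = 3) and 77.5 ± 9.81 in vehicle cells (n = 5; 0.85 ± 0.13, adjusted p = 0.0022) and was called in each of 21 alternatives. Gclm, a subunit of the glutathione-making ligase, rose by 0.73 (adjusted p = 0.0223; 16 of 21 alternatives) and the thioredoxin reductase gene Txnrd1 by 0.59 (adjusted p = 0.0192; 17 of 21), while glutathione reductase, Gsr, fell by 0.41 (adjusted p = 0.0332; 11 of 21). In relapse against iCT, G6pdx (-0.78, adjusted p = 0.00515), Gclm (-0.84, adjusted p = 0.0143) and the cystine transporter gene Slc7a11 (-0.80, adjusted p = 0.0183) fell. For relapse against vehicle none of the 7 lists had a called gene, in a comparison with no call at all.

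**Figure D5:**
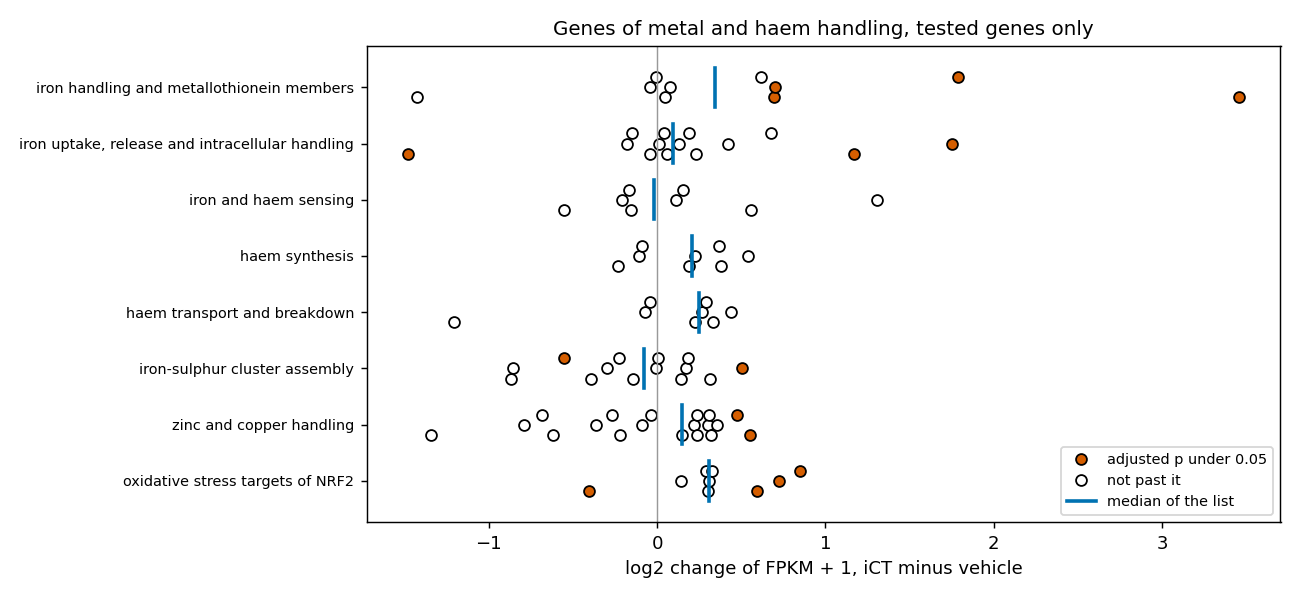
Log2 change of every tested gene for iCT against vehicle (points, log2(FPKM + 1) scale; filled for adjusted p under 0.05), with the 10 genes of the set in the top row, the 7 lists of iron, haem, zinc, copper and oxidative stress genes below, and each median as a line. The medians of the 7 lists lie between -0.08 and 0.31, and the top row has 4 filled points, all on the right.

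Markers of other marrow cells moved in the same libraries. Of 10 tested macrophage markers, Axl, Cd5l, Folr2 and Mrc1 reached the filter only with the iCT libraries, where they are high. Of the other 6, 4 rose and 1 fell in iCT against vehicle cells, beside 3.31% of all tested genes called higher and 6.31% lower. The summed level of all 16 listed was 117 to 140 FPKM in relapse, 228 to 348 in iCT and 157 to 190 in vehicle libraries. C1qa, a complement gene of tissue macrophages, had 21.9, 34.2 and 74.6 FPKM in iCT libraries, against 1.91 to 6.78 in vehicle libraries, and Adgre1, which encodes F4/80, fell by 1.87 (limma adjusted p = 0.000192). Among the iCT mice, Hmox1, Fth1 and Slc11a1 were highest in mouse 3. So were the macrophage markers C1qa, C1qb, C1qc, Cd163, Vcam1, Siglec1, Adgre1, Timd4, Axl, Mertk and Marco. Mt1 and Mt3 were highest in mouse 1, the shallowest library, as were Cd5l, Apoe, Mrc1 and Folr2. Folr2 had 5.49 FPKM there, against 4.92 in mouse 3, and Vsig4 was highest in mouse 2. Spic and Cd163, which mark iron-recycling macrophages, were too low to be tested, at averages of 0.761 and 1.02 FPKM in iCT cells and 0.2 and 0.358 in vehicle cells. Of 16 macrophage markers, Timd4 and Marco were at 0 in every relapse library and Vsig4 and Marco in every vehicle library, and none was at 0 in every iCT library. Summed osteoclast markers stood at 59.7 to 180 FPKM in relapse, 267 to 1009 in iCT and 32.0 to 86.3 in vehicle libraries. Atp6v0d2, Dcstamp and Ocstamp reached the filter only with the iCT libraries. Of the other 5 tested, 3 rose in iCT against vehicle cells (Ctsk, Acp5 and Mmp9), beside the same shares of all genes. Ctsk and Acp5, enzymes of bone resorption, were highest in iCT mouse 1, at 277 and 347 FPKM. Calcr, Dcstamp and Oscar were at 0 in every vehicle library. Summed mature neutrophil markers, a list that includes Lcn2 and again Mmp9, stood at 6831 to 16041 FPKM in relapse, 15557 to 19912 in iCT and 4108 to 15033 in vehicle libraries. Of 13 tested, 4 rose (Lcn2, Cxcr2, Mmp9 and Chil3) and 0 fell in iCT against vehicle cells, beside the same shares. The change was positive for 9 and negative for 4, with Retnlg at -2.36 (limma adjusted p = 0.0551). Summed erythroid markers stood at 37.1 to 131 FPKM in relapse, 5.61 to 22.5 in iCT and 10.7 to 323 in vehicle libraries. For iCT against vehicle the only symbol called was the globin gene Hba-a1, which fell. It is listed at 2 near-identical loci that the sums count separately. For relapse against iCT the only symbol called was Car1, which was higher (2.03, limma adjusted p = 0.0406). Slc4a1, Rhag, Car1 and Tspo2 were at 0 in every iCT library. Lymphoid and stromal markers summed to 50.3 to 79.3 FPKM in relapse, 52.3 to 69.8 in iCT and 61.9 to 104 in vehicle libraries. Of 6 tested, 0 rose and 2 fell in iCT against vehicle cells (Cd79b and Pecam1), beside the same shares of all genes. The part of these cell types in the values of Hmox1, Slc11a1, Fth1, Mt1 and Mt3 was not tested.

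The genes whose pattern over the 12 libraries was most like that of a member differed from one member to the next. For Hmox1 they were Sdc3 (Pearson r = 0.945), Lgmn (0.927) and Lipg (0.926), and these stayed at 0.916 or more without iCT mouse 1. For Slc40a1 they were Ppp2cb (0.895), Serpinb1c (0.845) and Dgat2 (0.833), and for Tfrc they were Dkc1 (0.896), Parg (0.858) and Kctd13 (0.855). For Mt1 they were Klhl2 (0.951), Gpatch4 (0.945) and Gtf2f1 (0.944), which were 0.918 to 0.928 without iCT mouse 1. These were the highest of 11019 genes, the libraries share the group differences, and the coefficients describe likeness only.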

How the data were processed

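Total RNA came from RNeasy micro columns (Qiagen) and the libraries from NEB reagents, per the labels' protocols. The authors deposited 1 gene table per library with FPKM values and their confidence intervals. STAR and Cufflinks are named in the submitters' processing notes, without versions. Those notes name mm9, whereas 99.4% of 23030 symbols compared lay on the same GENCODE M21 gene of GRCm38, so positions are given as GRCm38. The treatment of multi-matching fragments and of strand is not stated in those notes.

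The tables hold 24883 entries with 24346 different symbols, and 2 entries with a failed estimate were left out. Depth per library was read back from each gene's FPKM and interval, taken as 2 SD of a Poisson count, as an approximation; precision per value follows from these implied fragments, and floors are 3 fragments. No pair of libraries held identical values. Groups came from the sample titles, and nothing further shows whether mice of a group share a litter or batch.

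The test was a limma model (version 3.58.1, R 4.3.3; empirical Bayes with a mean-variance trend) of log2(FPKM + 1), in 1 fit of 12 libraries with group as the only term. A gene entered when 3 or more libraries reached 1 FPKM (11019 genes). P-values are two-sided, with Benjamini-Hochberg adjustment over all of them and a threshold of 0.05. Fold changes on this scale understate changes of low genes. The procedure was first tested on simulated data. Other pseudocounts (0.1 and 0.5), filters, scalings, quality weights, a replicate block, fits of the compared groups alone and leaving out each library in turn gave 21 alternatives per comparison, some of which remove low genes by their filter. Sequences came from RefSeq (GRCm38.p6) and GENCODE M21.

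The 10 genes, the gene lists and the rule for the other named genes were chosen with earlier results of these data known. That rule took 16 fixed iron and zinc genes where tested, and up to 4 further genes per list with the smallest p among those called in iCT against vehicle; Epas1, Hmox2, Hp, Iscu, Slc7a11 and the single marker genes were named after their values were seen. List entries without a row (Flvcr1 among them) are not analysed here.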

Additional observations from a re-analysis of the deposited data

Results flagged for a closer look

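In groups of 4 or 5 libraries, the gap of the highest or lowest library to its neighbour was compared with the range of the group (Dixon's criterion at 95%) for each gene of the set, which made 20 checks; chance passes about 1 in 20. Tfrc in relapse mouse 1, at 24.0 FPKM, stood apart from the other 3 relapse mice by 0.831 of the range, just past the limit for 4 libraries. Without that mouse the log2 change of Tfrc for relapse against vehicle was 0.17. Mt3 was 0.933 FPKM in relapse mouse 1 and 1.11 FPKM in vehicle mouse 2, each about 1 fragment in a group otherwise at 0. The iCT group, with 3 mice, was too small for this check, so the 150 FPKM of Mt3 in iCT mouse 1 was not assessed by it.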

How the results depend on the processing

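Hmox1 and Fth1 were called in the same direction in each of 21 alternatives, both for iCT against vehicle (1.52 to 2.11 and 0.62 to 0.81) and for relapse against iCT (-2.31 to -1.85 and -0.78 to -0.58). For iCT against vehicle, 2 of the 10 genes were called higher with array weights, with the replicate block and with only the groups compared, and 2 to 4 higher and 0 to 1 lower when 1 library was left out. Over all genes the same 3 settings called 457, 197 and 351, and leaving out 1 library 569 to 2722, against 1060. For relapse against vehicle, array weights called 1 gene of the set higher and 1 lower (971 of all genes), only the groups compared 1 higher (612), no filter 1 of all genes, and leaving out 1 library 0 to 5 of all genes. For relapse against iCT, the replicate block and only the groups compared called 0 of the set higher, as Mt2 had an adjusted p of 0.0722 and 0.0506; over all genes array weights, the block and only the groups compared called 603, 372 and 252, and leaving out 1 library 529 to 1855, against 1071. The cause was not tested, except that the last of these fits has fewer samples.

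The mouse numbers did not pair the samples: same-numbered mice had deviations that correlated by -0.091 to 0.099. With the replicate block Mt1 (0.70, adjusted p = 0.109) and Mt3 (3.32, adjusted p = 0.12) were not called for iCT against vehicle.

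Mt3 (for iCT against vehicle) also missed the threshold with no filter (adjusted p = 0.0811), array weights (0.0717) and only the groups compared (0.108), and Mt1 with array weights (0.127) and only the groups compared (0.0779). Among all 54 gene changes examined, 15 changed sign somewhere, none past the threshold (lowest adjusted p = 0.49). With median-of-ratios scaling these were Ftl1 (0.0027 for iCT against vehicle, -0.097 for relapse against iCT), Slc30a1 (0.030) and Fth1 (-0.038, relapse against vehicle). With quantile normalization they were Ftl1 (0.039 for iCT against vehicle, 0.11 for relapse against vehicle), Slc30a1 (0.13) and Mt3 (-0.044, relapse against vehicle). With array weights they were Slc30a1 (0.017 for relapse against vehicle, 0.089 for relapse against iCT), Ftl1 (-0.029, relapse against iCT) and Blvrb (0.13). With the replicate block they were Mt3 (-0.031, relapse against vehicle), Ftl1 (-0.011, relapse against iCT) and Ncoa4 (-0.0046).

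Leaving out 1 library gave changes of sign within these ranges. For iCT against vehicle they were Aco1 -0.024 to 0.28, Blvrb -0.29 to 0.20, Ncoa4 -0.032 to 0.094, Steap3 -0.074 to 0.26, Slc30a1 -0.18 to 0.0998, Ftl1 -0.087 to 0.0092, Slc40a1 -0.17 to 0.46 and Tfrc -0.048 to 0.17. For relapse against vehicle they were Ftl1 -0.073 to 0.0087, Mt3 -0.22 to 0.24 and Slc30a1 -0.13 to 0.054. For relapse against iCT they were Ftl1 -0.031 to 0.066, Mt1 -0.31 to 0.010 and Slc30a1 -0.14 to 0.14.

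Depth limits the low genes: iCT mouse 1 had a median of 13.8 implied fragments per gene of at least 1 FPKM, against 43.9 to 293 in the other libraries. Slc11a1 (about 3), Slc30a1 (6.82), Slc40a1 (8), Hmox1 (14), Mt3 (21) and Tfrc (21) rest on few fragments there, and Mt2 was listed at 0.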
